A study of Mus musculus with 47 samples.

Results

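The 10 genes described here are the receptor gene *Trem2*, 6 genes that act with it or beside it in myeloid cells (*Tyrobp*, *Syk*, *Plcg2*, *Inpp5d*, *Cd33* and *Abi3*), and 3 Alzheimer risk genes that other brain cells also express (*Apoe*, *Clu* and *Bin1*). They were chosen by symbol, and each symbol was matched to its Ensembl identifier by the GENCODE M21 annotation. All 10 were found in both deposited tables, among the 54281 genes listed with TPM (transcript abundance scaled for transcript length and library depth) and the 54532 listed with read counts. The minimum for testing, 1 TPM averaged over the libraries, was reached by 9 of the 10 and by 14580 genes in all. *Syk* fell short of it and was tested on the counts and in a fit without this minimum.

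Cortical RNA was sequenced from 47 male C57BL/6J mice of about 3 months, with 1 library per mouse. For 10 days, 23 of them had been fed control chow and 24 had been fed chow holding 1200 ppm of PLX5622, which blocks CSF1R, the receptor whose signal keeps microglia alive. Mice of both diets were killed at Zeitgeber times (ZT) 2, 6, 10, 14, 18 and 22, where ZT0 is lights-on and ZT12 lights-off, with 4 mice in each of the 12 groups and 3 in the control group at ZT14. PLX5622 in chow reaches the whole body and every CSF1R-dependent cell, and the mice carried no transgene.

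The TREM2 receptor sits on the surface of microglia and binds lipids and lipoprotein particles, among them those that carry apolipoprotein E and clusterin. It has almost no tail of its own inside the cell and signals through the adaptor TYROBP, also called DAP12, which recruits the kinase SYK. SYK in turn activates phospholipase C gamma 2, whereas the phosphatase SHIP1, encoded by *Inpp5d*, and the human sialic acid receptor CD33 restrain the signal. Whether mouse CD33 does so was not tested. Variants in or near all of the human counterparts of *Trem2*, *Plcg2*, *Inpp5d*, *Cd33*, *Abi3*, *Apoe*, *Clu* and *Bin1* have been linked to the risk of Alzheimer's disease.

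The 10 genes lie on 8 chromosomes in GRCm38, and *Apoe*, *Tyrobp* and *Cd33* share chromosome 7. *Trem2* occupies chr17:48346401-48354147, *Tyrobp* chr7:30413760-30417585 and *Apoe* chr7:19696109-19699188. Upstream sequences of the 250 bases before a RefSeq transcription start (GRCm38.p6) were at hand for 6 of the 10, namely *Trem2*, *Inpp5d*, *Cd33*, *Apoe*, *Plcg2* and *Syk*. They are shown for 3 genes that fell with PLX5622 and for *Apoe*, which did not pass the test, because PU.1, the myeloid transcription factor encoded by *Spi1*, binds sites with a GGAA core. The capitals mark AGGAAG, its complement CTTCCT, or the longer GAGGAAGT, searched on both strands.
*Trem2*, chr17:48346151-48346400, plus strand: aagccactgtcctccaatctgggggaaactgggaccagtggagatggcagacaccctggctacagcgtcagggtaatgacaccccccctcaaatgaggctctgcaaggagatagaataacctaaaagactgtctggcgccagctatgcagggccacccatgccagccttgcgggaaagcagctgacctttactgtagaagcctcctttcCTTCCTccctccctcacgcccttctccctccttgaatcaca
*Inpp5d*, chr1:87620062-87620311, plus strand: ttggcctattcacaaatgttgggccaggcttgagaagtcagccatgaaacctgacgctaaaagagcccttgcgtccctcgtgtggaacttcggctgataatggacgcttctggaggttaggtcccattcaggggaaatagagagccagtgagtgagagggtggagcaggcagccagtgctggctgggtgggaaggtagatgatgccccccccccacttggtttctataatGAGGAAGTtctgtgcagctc
*Cd33*, chr7:43533172-43533421, minus strand: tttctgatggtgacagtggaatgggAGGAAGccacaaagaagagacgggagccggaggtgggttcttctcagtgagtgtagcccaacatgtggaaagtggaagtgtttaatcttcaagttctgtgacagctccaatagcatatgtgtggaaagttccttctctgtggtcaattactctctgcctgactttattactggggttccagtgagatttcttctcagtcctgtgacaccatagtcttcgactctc
*Apoe*, chr7:19699189-19699438, minus strand: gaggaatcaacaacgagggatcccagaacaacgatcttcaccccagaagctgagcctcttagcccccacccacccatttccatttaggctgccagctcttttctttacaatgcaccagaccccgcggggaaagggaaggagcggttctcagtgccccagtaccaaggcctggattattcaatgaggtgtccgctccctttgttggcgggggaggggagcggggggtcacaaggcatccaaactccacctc
The *Trem2* sequence holds CTTCCT from position -41 relative to the start, the *Inpp5d* sequence holds GAGGAAGT from -19, and the *Cd33* sequence holds AGGAAG from -225. Of 32851 promoters of the same length, 29.5% hold AGGAAG on either strand and 2.44% hold GAGGAAGT, of which AGGAAG is a part. The *Apoe* sequence shown, the *Plcg2* sequence and both *Syk* sequences hold neither, and 1 of the other *Apoe* starts has AGGAAG at -192. A match describes these letters only and does not show that PU.1 binds there.

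The libraries held 16597987 to 27626161 counted reads (median 18314954 with control chow, 21476967.5 with PLX5622). All 14 microglial marker genes tested, none of them a member, fell with PLX5622, and their summed level was 554 to 842 TPM in control mice and 20.4 to 123 TPM in PLX5622 mice. Both border macrophage markers that reached 1 TPM fell too, and the summed level of all 7 was 7.82 to 20.2 TPM against 0.385 to 2.94 TPM. Of the 8 astrocyte markers, *Gfap* rose by 0.56 on the log2 scale (limma adjusted p = 5.493e-06) and 7 did not pass the test. Markers of neurons, endothelial cells and mural cells did not pass it in either direction. In bulk tissue, fewer cells of a type and less RNA per cell cannot be told apart.

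With PLX5622, all 6 of the tested genes of the TREM2 side (*Trem2*, *Tyrobp*, *Plcg2*, *Inpp5d*, *Cd33* and *Abi3*) fell, and none of *Apoe*, *Clu* and *Bin1* passed the test. Over all genes tested, limma called 2.58% lower and 0.871% higher at an adjusted p under 0.05. The share of all genes whose PLX5622 mice all lay below all control mice was not determined. The separation of single members given below therefore has no such background. *Trem2*, *Tyrobp* and *Cd33* kept 10.4% to 11.9% of the control mean in TPM and *Abi3* kept 19.5%, whereas *Syk*, *Inpp5d* and *Plcg2* kept 37.1% to 45.2% and *Bin1*, *Apoe* and *Clu* kept 93.9% to 104.6%.

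**Figure D1:**
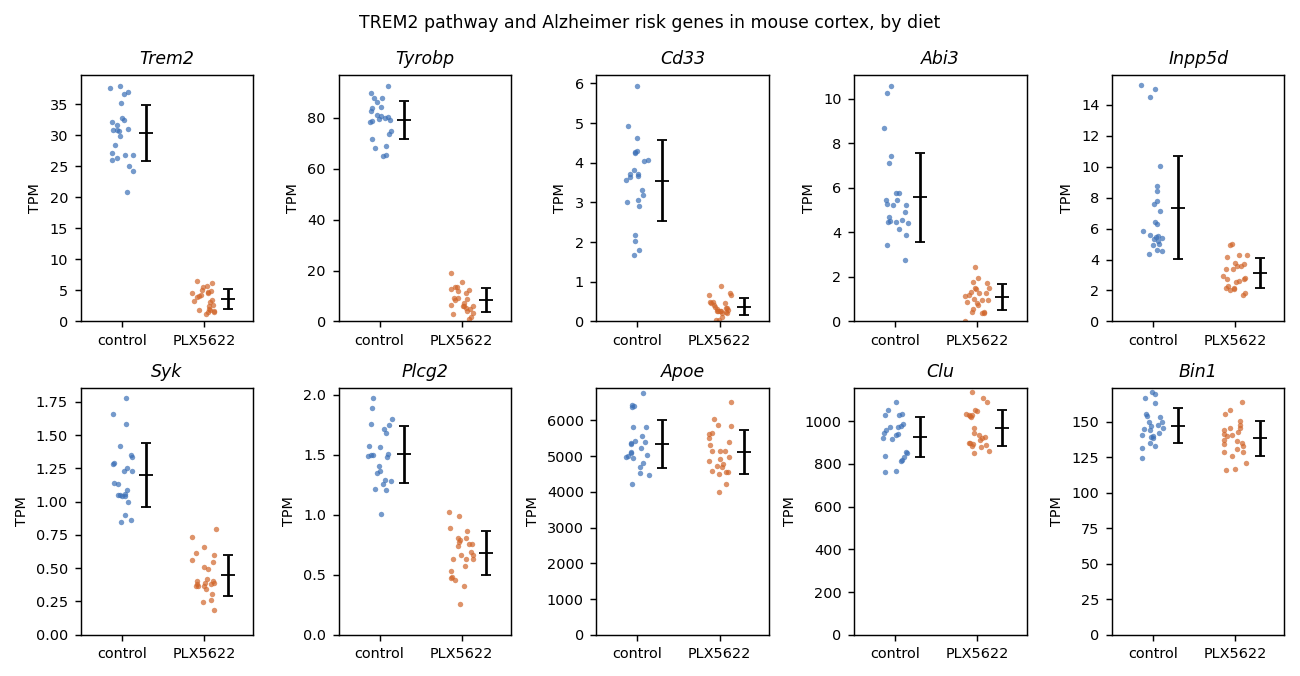
TPM of each gene in every mouse (points, 23 control and 24 PLX5622) with the mean and SD beside them, each panel on its own linear axis from 0. The groups do not overlap for *Trem2*, *Tyrobp*, *Cd33*, *Abi3* and *Syk*, and they lie over one another for *Apoe*, *Clu* and *Bin1*. The share of all genes without overlap was not determined.

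*Trem2*, the receptor, ranged from 20.8 to 37.9 TPM in control mice (median 30.8) and from 1.25 to 6.59 TPM in PLX5622 mice (median 3.73). Every PLX5622 mouse lay below every control mouse. The means were 30.3 ± 4.57 TPM (SD, n = 23) and 3.61 ± 1.63 TPM (SD, n = 24), a log2 fold change of -2.84 on the log2(TPM + 1) scale (standard error 0.12, limma adjusted p = 1.1932e-24). Relative to the mean, the spread between mice was 15.1% with control chow and 45.1% with PLX5622.

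*Tyrobp*, the adaptor that carries the signal of TREM2 and of other myeloid receptors, was the most abundant of the 7 TREM2-side genes in TPM. It ranged from 64.9 to 92.4 TPM in control mice (median 80.0) and from 0.807 to 18.9 TPM in PLX5622 mice (median 7.81), without overlap. Its log2 fold change was -3.30 (standard error 0.18, limma adjusted p = 6.3424e-21), the largest among the members on the log2(TPM + 1) scale, which compresses low genes. On the counts *Cd33* changed as much (edgeR -3.22 against -3.21). The lowest PLX5622 mouse had 4 reads on *Tyrobp* and the highest 117, against 250 to 510 in control mice.

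*Syk*, the kinase that TYROBP recruits, ranged from 0.847 to 1.78 TPM in control mice (median 1.14) and from 0.183 to 0.798 TPM in PLX5622 mice (median 0.396). The groups did not overlap, although the nearest pair of mice lay close together. The fit without a minimum gave a log2 fold change of -0.60 on the log2(TPM + 1) scale (standard error 0.040, limma adjusted p = 1.9854e-16). At levels near 1 TPM the added 1 compresses the change, and edgeR on the counts gave -1.46 (adjusted p = 7.5302e-17).

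*Plcg2*, which encodes the phospholipase downstream of SYK, had a similar low level, 1.01 to 1.97 TPM in control mice (median 1.498) and 0.259 to 1.02 TPM in PLX5622 mice (median 0.680). Of the 24 PLX5622 mice, 23 lay below every control mouse. The log2 fold change was -0.58 in TPM (standard error 0.045, limma adjusted p = 1.1561e-14) and -1.18 in edgeR.

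*Inpp5d*, which encodes the phosphatase SHIP1, was among the members on which the deposited tables differed, as was *Abi3*. In TPM it ranged from 4.38 to 15.3 in control mice (median 5.87) and from 1.72 to 4.98 in PLX5622 mice (median 2.88), and 22 of 24 PLX5622 mice lay below every control mouse. The change was -0.97 (standard error 0.12, limma adjusted p = 9.5127e-09). Scaled to the library total as CPM, without regard to length, the control mice spread by 13.3% of their mean in place of 45.4%, all 24 PLX5622 mice lay below all 23 control mice, and the mean went from 16.6 ± 2.20 to 5.10 ± 1.41 CPM (SD), so 30.7% was kept in place of 42.4%. The edgeR fold change was -1.72 (adjusted p = 2.0505e-23). The origin of this difference between the tables was not tested.

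*Cd33*, which encodes a sialic acid receptor, ranged from 1.67 to 5.93 TPM in control mice (median 3.68) and from 0.037 to 0.903 TPM in PLX5622 mice (median 0.322). Again no PLX5622 mouse reached the lowest control mouse. Its log2 fold change was -1.71 in TPM (standard error 0.079, limma adjusted p = 2.6201e-23) and -3.22 in edgeR, close to the -3.21 of *Tyrobp* and the -3.03 of *Trem2* on the same counts.

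*Abi3*, which encodes an actin-regulating adaptor of the WAVE complex family and lies outside the TREM2 cascade itself, ranged from 2.77 to 10.6 TPM in control mice (median 5.21) and from 0 to 2.43 TPM in PLX5622 mice (median 1.06). The groups did not overlap, and the log2 fold change was -1.65 (standard error 0.12, limma adjusted p = 2.6706e-16). It rested on few reads, 21 to 70 per control library and 0 to 14 per PLX5622 library. The exons of *Abi3* overlap those of *Gngt2*, *Phospho1* and *Zfp652* on the opposite strand, and whether the counting used strand is not given in the sources used here. It kept 19.5% of the control mean in TPM and 13.7% in CPM.

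*Apoe*, the main lipid carrier of astrocytes, which microglia also make, was by far the most abundant member. It ranged from 4206 to 6770 TPM in control mice (median 5234) and from 3994 to 6503 TPM in PLX5622 mice (median 5047). The groups overlapped over most of their range, with 1 PLX5622 mouse below every control mouse and 1 control mouse above every PLX5622 mouse. The log2 fold change was -0.06 (standard error 0.052, limma adjusted p = 0.571), with a 95% interval of 88.9% to 103% of the control level.

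*Clu*, which encodes clusterin, a second secreted apolipoprotein of astrocytes and some neurons, ranged from 763 to 1091 TPM in control mice (median 938) and from 852 to 1137 TPM in PLX5622 mice (median 940). The medians lay close together, and 7 control mice were below every PLX5622 mouse. Its log2 fold change of 0.07 (standard error 0.042, limma adjusted p = 0.446) had a 95% interval of 98.7% to 111% of the control level. Choroid plexus epithelium also expresses *Clu*. In limma 2 of 6 choroid plexus markers rose with PLX5622, *Ttr* by 0.80 and *Kl* by 0.40, whereas edgeR on the counts called 0 of the 6. The summed level of these markers ranged from 68.1 to 1187 TPM in control mice and from 147 to 1270 TPM in PLX5622 mice. Their part in the *Clu* level was not tested.

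*Bin1*, which encodes a membrane-bending adaptor of neurons and oligodendrocytes, ranged from 125 to 171 TPM in control mice (median 146) and from 116 to 164 TPM in PLX5622 mice (median 139). The groups overlapped, with 3 mice of each diet outside the range of the other. Its log2 fold change was -0.09 (standard error 0.038, limma adjusted p = 0.202), and the 95% interval ran from 88.9% to 98.9% of the control level. On the counts the same small change passed the test, at -0.11 in edgeR (adjusted p = 0.003448) and -0.11 in DESeq2 (adjusted p = 1.6804e-04). It also passed with median-of-ratios scaling of TPM, at -0.12 (limma adjusted p = 0.001486). These calls stand against a background of 4.99% of genes called lower and 1.81% called higher by edgeR, 5.33% called lower by DESeq2 and 3.75% called lower by limma with the other scaling. Of 7 oligodendrocyte markers, *Cldn11* rose (0.24) and 6 did not pass, and none of 7 neuronal markers did. A long noncoding gene, A830052D11Rik, overlaps *Bin1* exons on the opposite strand.

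With edgeR, 8 of the 10 members were lower, all 7 TREM2-side genes and *Bin1*, beside 4.99% of all genes tested. *Apoe* (-0.12, edgeR adjusted p = 0.244) and *Clu* (0.05, edgeR adjusted p = 0.563) were not called. Over the 7 TREM2-side genes the edgeR log2 fold changes were -3.22 for *Cd33*, -3.21 for *Tyrobp*, -3.03 for *Trem2*, -2.84 for *Abi3*, -1.72 for *Inpp5d*, -1.46 for *Syk* and -1.18 for *Plcg2*.

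**Figure D2:**
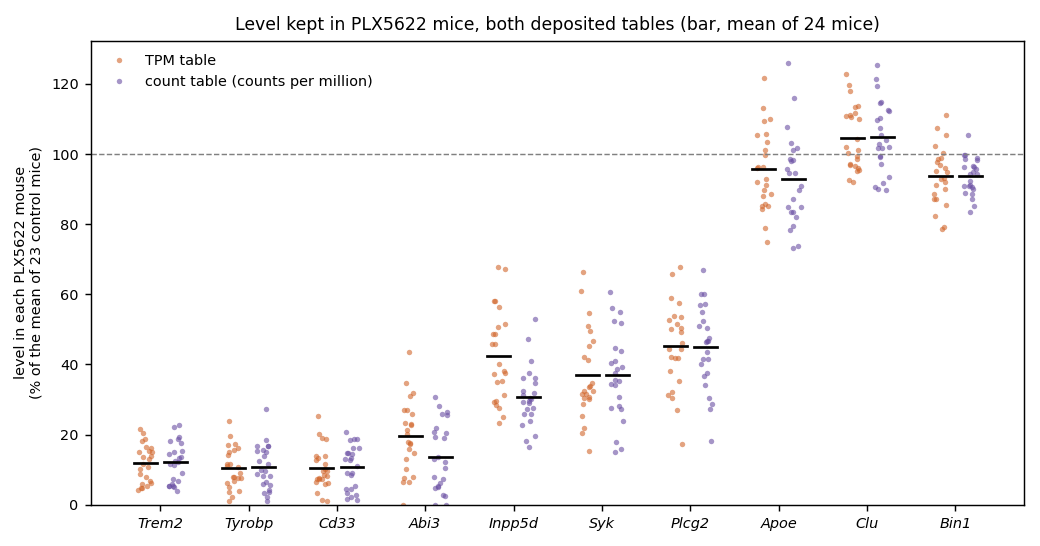
Level of each gene in each of the 24 PLX5622 mice as a percent of the mean of 23 control mice, from the TPM table and from the counts as CPM, with a bar at the mean. *Trem2*, *Tyrobp* and *Cd33* sit near 11% in both, and *Inpp5d* and *Abi3* are lower in CPM than in TPM. In TPM and CPM, the means are 95.6% and 92.8% for *Apoe*, 104.6% and 104.9% for *Clu*, and 93.9% and 93.7% for *Bin1*.

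Whether these losses were unequal was tested on the ratio of each gene to *Trem2* within each library, with 0.1 TPM added to both. Of 14579 genes, 99.8% departed from the change of *Trem2*, so a departure is the rule, and *Cd33* was the only one of the 8 members tested for which none was called (log2 ratio difference 0.14, limma adjusted p = 0.418). The ratio of *Cd33* to *Trem2* was 0.118 ± 0.0319 in control mice and 0.118 ± 0.116 in PLX5622 mice (SD). Its medians were 0.116 and 0.0898, and among PLX5622 mice it ran from 0.0253 to 0.621. With 1 TPM added in place of 0.1, the difference of *Cd33* was 1.14 and was called, so its place beside *Trem2* depends on that constant. In TPM *Tyrobp* was lost slightly more than *Trem2* (-0.32, standard error 0.14, limma adjusted p = 0.021). With nearly all genes called, the adjustment changes such a p-value little. The call was kept in 6 of 6 other settings, all on TPM, and with each of the 47 libraries left out in turn. On the counts edgeR gave -3.21 for *Tyrobp* and -3.03 for *Trem2*, and the difference between these was not tested.

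In TPM the remaining TREM2-side genes were lost less than *Trem2*. The log2 ratio difference was 0.76 for *Abi3* (limma adjusted p = 5.3021e-05), 2.01 for *Inpp5d* (1.5168e-13) and 2.10 for *Plcg2* (1.0364e-16), and 1.90 for *Syk* in the fit without a minimum (1.1936e-13). *Plcg2* went from 0.050 ± 0.00796 of the *Trem2* level in control mice to 0.240 ± 0.138 of it in PLX5622 mice (SD). *Inpp5d* went from 0.243 ± 0.103 to 1.14 ± 0.808 (SD), and among PLX5622 mice this ratio ran from 0.297 to 3.42 with a median of 0.794. The counts put *Inpp5d* nearer to *Trem2*, with edgeR log2 fold changes of -1.72 and -3.03. They put *Abi3* close to *Trem2*, at -2.84, and these differences on the counts were not tested. *Apoe*, *Clu* and *Bin1* rose against *Trem2* by 3.11, 3.24 and 3.08.

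Against *Clu*, a gene whose own level did not pass the test for diet, 5.68% of genes departed. All 6 tested TREM2-side genes did, by -1.14 for *Plcg2* to -3.57 for *Tyrobp*. *Apoe* also fell relative to *Clu*, by -0.13 (standard error 0.039, limma adjusted p = 0.0366), as the ratio of *Apoe* to *Clu* in TPM went from 5.78 ± 0.560 in control mice to 5.27 ± 0.380 in PLX5622 mice (SD), with overlapping ranges of 4.53 to 6.97 and 4.59 to 6.17. This call was held in 32 of 47 fits with a library left out and lost without the minimum on TPM (adjusted p = 0.0723). *Bin1* relative to *Clu* did not pass (-0.16, adjusted p = 0.0902).

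The study sampled the day to ask whether diurnal expression persists without microglia, and the diet difference of each member was therefore taken at each of the 6 ZTs. *Trem2*, *Tyrobp*, *Cd33* and *Abi3* were lower in PLX5622 mice at all 6, *Plcg2* at 5 and *Inpp5d* at 1. *Abi3* was no longer called at all 6 (its highest adjusted p was 0.0259, at ZT18) without any 1 of 5 libraries of ZT18 (control mice 1, 2 and 3, PLX5622 mice 2 and 3), with 0.1 TPM added in place of 1, and without the minimum on TPM. Of all genes, limma called 1.18% lower at ZT2, 0.967% at ZT6, 1.02% at ZT10, 0.885% at ZT14, 0.775% at ZT18 and 1.25% at ZT22. The log2 fold change of *Trem2* ran from -3.33 at ZT14 to -2.31 at ZT18, and that of *Tyrobp* from -3.97 to -2.70. *Cd33* ran from -2.13 to -1.40 and *Abi3* from -2.05 to -1.08.

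*Plcg2* missed the threshold at ZT18 only, where its control level was lowest (1.19 TPM) and the change was -0.34 (limma adjusted p = 0.0981). *Inpp5d* changed by -0.54 to -1.26 over the ZTs and was called at ZT22 only (adjusted p = 0.0112). On the counts, edgeR called *Inpp5d* and *Syk* lower at all 6 ZTs and *Plcg2* at 5, where it called 1.88%, 1.42%, 1.64%, 1.47%, 1.31% and 1.57% of genes lower from ZT2 to ZT22. *Apoe*, *Clu* and *Bin1* were called at none of the 6 ZTs by limma or edgeR, and their limma changes ran from -0.20 to 0.14, -0.05 to 0.14 and -0.16 to -0.04. The *Bin1* mean was lower with PLX5622 at all 6 ZTs, without passing the test at any.

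**Figure D3:**
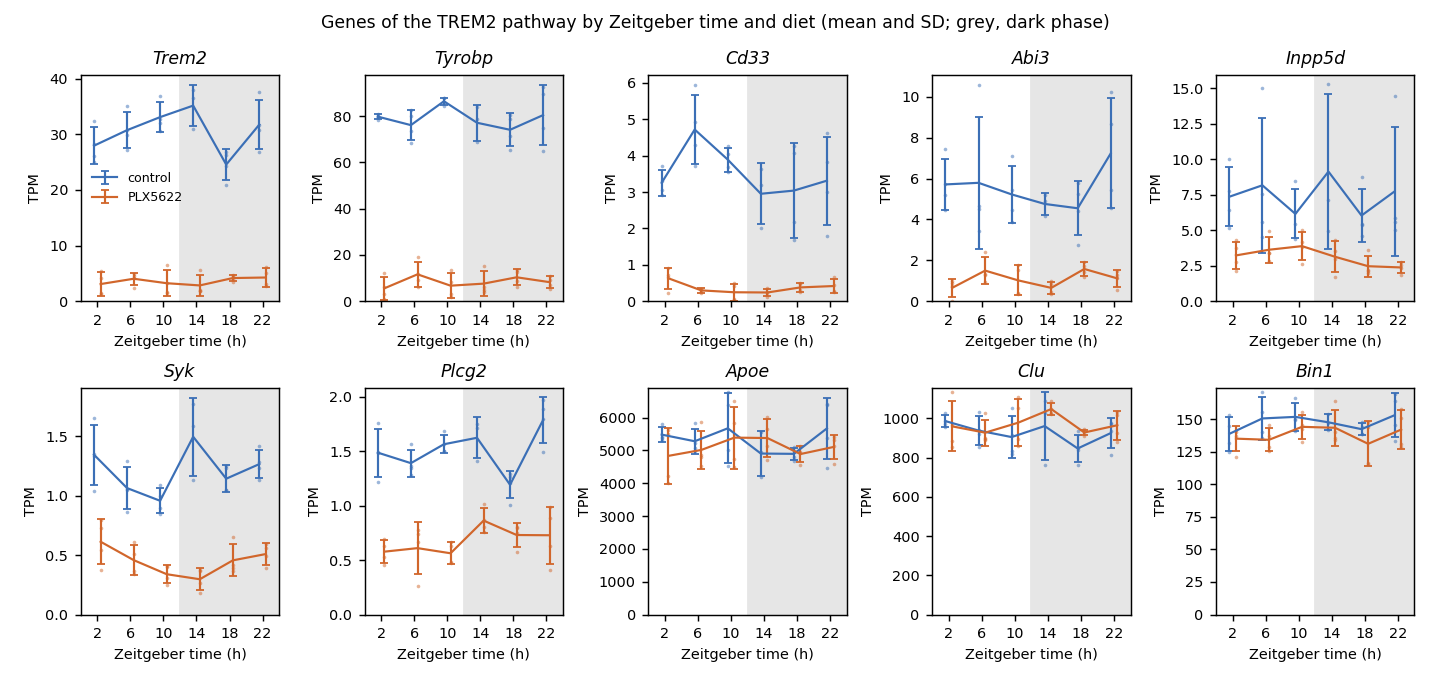
TPM of each gene by Zeitgeber time (h) in control and PLX5622 mice, with points for mice, lines through group means, bars for SD (n = 4, and 3 in control mice at ZT14) and grey for the dark phase. The mean lines of the TREM2-side genes stay apart at every ZT, those of *Apoe* and *Clu* cross, and the *Bin1* line of PLX5622 mice runs close below that of control mice (89.1% to 97.3% of it).

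The TREM2-side genes varied less over the day than they differed between diets. *Trem2* in control mice was lowest at ZT18 (24.6 ± 2.71 TPM, SD, n = 4) and highest at ZT14 (35.2 ± 3.68 TPM, SD, n = 3) in TPM. In CPM these groups overlapped, at 15.2 to 20.1 and 18.5 to 22.2 CPM, and no cycling of *Trem2* was called in control mice (JTK_CYCLE unadjusted p = 0.275). In PLX5622 mice the order was another, from 2.84 ± 1.87 TPM at ZT14 to 4.27 ± 1.65 TPM at ZT22, with overlapping ranges. *Cd33* in control mice was highest at ZT6 (4.72 ± 0.950 TPM) and lowest at ZT14 (2.95 ± 0.840 TPM). *Apoe* group means ran from 4897 to 5676 TPM in control mice and from 4835 to 5392 TPM in PLX5622 mice.

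None of the members was called as cycling by JTK_CYCLE, a rank test for a 24-h wave, with either diet. It called 0.0754% of all genes in control mice and 0.61% in PLX5622 mice, 11 and 89 genes. The smallest JTK_CYCLE p among the 9 members tested was 0.0954 for *Cd33* in control mice and 0.0574 for *Inpp5d* in PLX5622 mice. These values were corrected over the 6 phases but not over genes. A limma F test of the cosine and sine of ZT without the minimum on TPM takes in *Syk* and has no correction over phases. Its p-values are therefore not directly comparable with those of JTK_CYCLE. The unadjusted p of this F test in PLX5622 mice was 0.00125 for *Syk*, 0.0115 for *Inpp5d* and 0.0191 for *Cd33*. For *Cd33* in control mice it was 0.0446. After correction over all genes these were 0.146, 0.391, 0.473 and 0.711, and none passed. No member and no gene (0%) had a rhythm that differed between diets by limma, edgeR or DESeq2, although 669, 1012 and 1075 genes had an unadjusted p under 0.05. Among the members these were *Cd33* in limma (unadjusted p = 0.0159) and *Syk* in edgeR and DESeq2 (unadjusted p = 0.0236 and 0.0154), each of which failed the correction.

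Depletion was not equal in all PLX5622 mice. The microglial level, the mean log2(TPM + 1) of the 14 microglial markers, was 5.19 ± 0.147 in control mice (SD, n = 23) and 2.03 ± 0.628 in PLX5622 mice (SD, n = 24), where it ran from 0.821 to 2.88. Within the PLX5622 mice, *Tyrobp* rose by 1.27 (standard error 0.107, limma adjusted p = 1.2001e-07), *Trem2* by 0.79 (standard error 0.081, adjusted p = 2.5003e-06) and *Abi3* by 0.58 (standard error 0.079, adjusted p = 3.4599e-04) per unit of this level. Only 0.13% of genes rose with it, and edgeR, which called 0.105%, also called *Trem2* and *Tyrobp*. *Abi3* and *Cd33* had too few reads to enter that edgeR fit.

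No rise was called for the other members tested. The slope of *Cd33* was 0.11 (standard error 0.062, unadjusted p = 0.0870), that of *Plcg2* 0.02 (standard error 0.055) and that of *Inpp5d* -0.05 (standard error 0.094). *Apoe*, *Clu* and *Bin1* had slopes of 0.02, -0.01 and -0.03, with standard errors of 0.048 to 0.061. With 0.1 TPM added in place of 1, rises were again called for *Trem2*, *Tyrobp* and *Abi3* and not for *Cd33*. *Cd33* was at most 0.903 TPM in PLX5622 mice, where the log2(TPM + 1) scale compresses changes, and no slope was fitted to its counts. It had 3 to 45 reads per PLX5622 library. The mouse with the lowest microglial level (0.821) had 4 of its reads and the mouse with the highest (2.88) had 38, so the TPM slope does not settle whether *Cd33* follows this level. Whether slopes differ between genes was not tested.

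**Figure D4:**
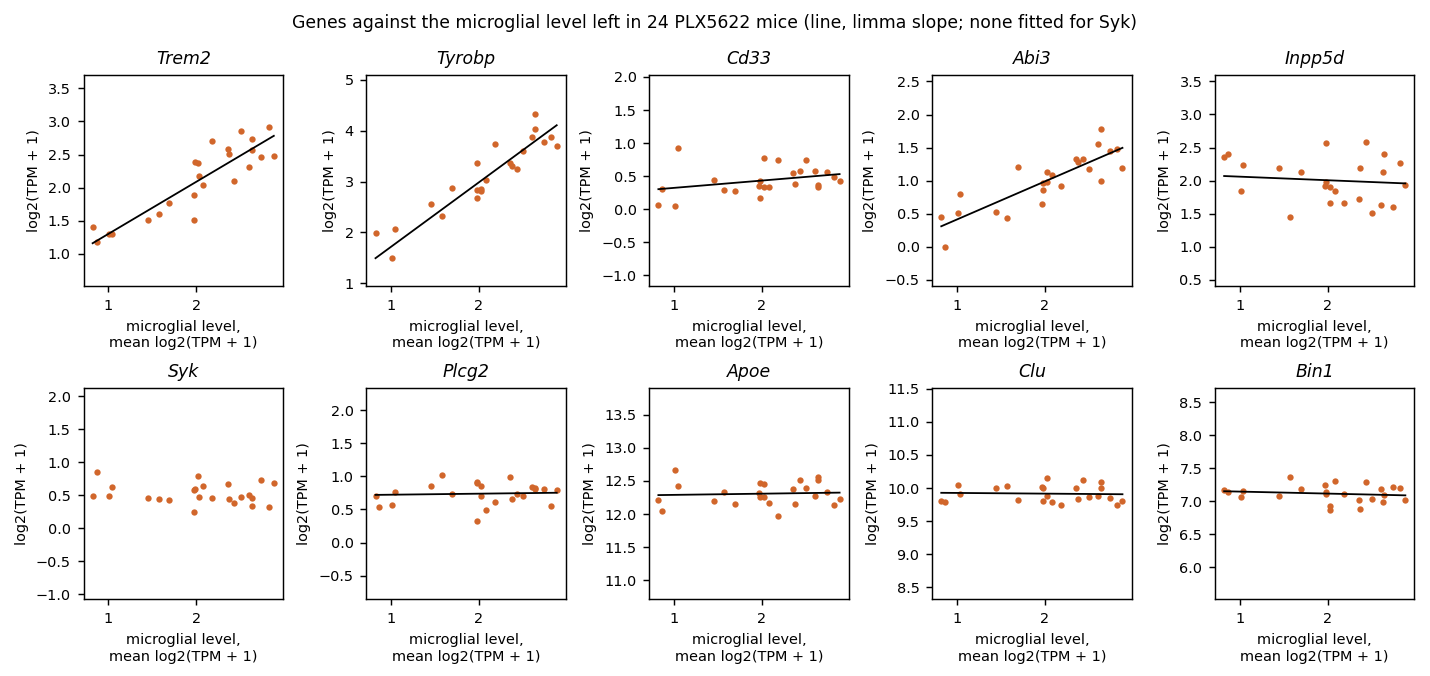
Level of each gene, log2(TPM + 1), against the microglial level of the same library in the 24 PLX5622 mice (points), with the limma slope as a line. Points of *Trem2*, *Tyrobp* and *Abi3* climb from left to right, and those of the other genes lie along a nearly flat line or, for *Syk*, have no line. For *Cd33*, at most 0.903 TPM in these mice, this scale compresses changes.

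As a description over the 24 PLX5622 libraries, the genes whose log2(TPM + 1) was most like that of *Trem2* were *Tyrobp* (Pearson r = 0.889), the fractalkine receptor gene *Cx3cr1* (0.885) and the complement gene *C1qc* (0.884). Among the members *Abi3* followed with 0.757, ahead of *Cd33* with 0.418, and the other members tested lay between -0.31 and -0.05, without *Syk*, which was not included. The genes most like *Apoe* were the astrocytic aldolase gene *Aldoc* (0.933), the carboxypeptidase gene *Cpe* (0.908) and the cystatin gene *Cst3* (0.901). *Clu* had 0.803 with *Apoe*, and *Trem2* had -0.05. All of these points share a library, its depth and the extent of depletion.

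Lists of genes around the pathway held genes that fell and genes that did not pass the test. The lists were chosen with earlier results of these data known, so their shares beside those of all genes are descriptions only. Of 8 genes on the ligand and co-receptor side of TREM2, 3 were tested, and *Hcst*, the adaptor DAP10, fell from 2.51 to 0.848 TPM (log2 fold change -0.95, limma adjusted p = 9.3791e-05), whereas *Adam10* and *Adam17*, proteases that shed the receptor, changed by 0.05 and -0.05 and did not pass. Of 21 intracellular signalling genes, 16 were tested, 9 were lower (2.58% of all genes were) and none was higher, with a median of -0.23 beside 0.03 over all genes. They included the phosphatase gene *Ptpn6* (-1.47), the exchange factor gene *Vav1* (-1.37), the small GTPase gene *Rac2* (-1.11) and the kinase gene *Lyn* (-0.83). With edgeR, all 21 were tested and 16 were lower, beside 4.99% of all genes.

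Of 18 genes of disease-associated microglia, 14 were tested and 3 were lower, again beside 2.58% of all genes: *Lyz2* (-1.82), *Ctsd* (-0.49) and *B2m* (-0.39). The median was 0.02, and 11 did not pass. Of 38 further genes listed here as Alzheimer risk genes of mouse, 29 were tested and 5 were lower (2.58% of all genes). Among the lower genes were *Siglech* (-3.15), *Spi1* (-2.10, from 5.53 to 0.548 TPM), *Blnk* (-0.49) and *Grn* (-0.47). The median of this list was 0.02. Whether each listed gene has a direct human counterpart was not examined. *Siglech* is also a microglial marker here, and *Blnk* is also in the signalling list. In edgeR, 10 of 35 were lower and 1 higher, beside 4.99% and 1.81% of all genes. Of 17 genes for apolipoprotein receptors and lipid transport, *Lrp1*, a receptor for particles with apolipoprotein E, was lower (-0.24, limma adjusted p = 0.0475), but at -0.05 in edgeR it was not called. None of 16 genes of amyloid precursor processing passed in limma, and 1 was higher in edgeR. 

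**Figure D5:**
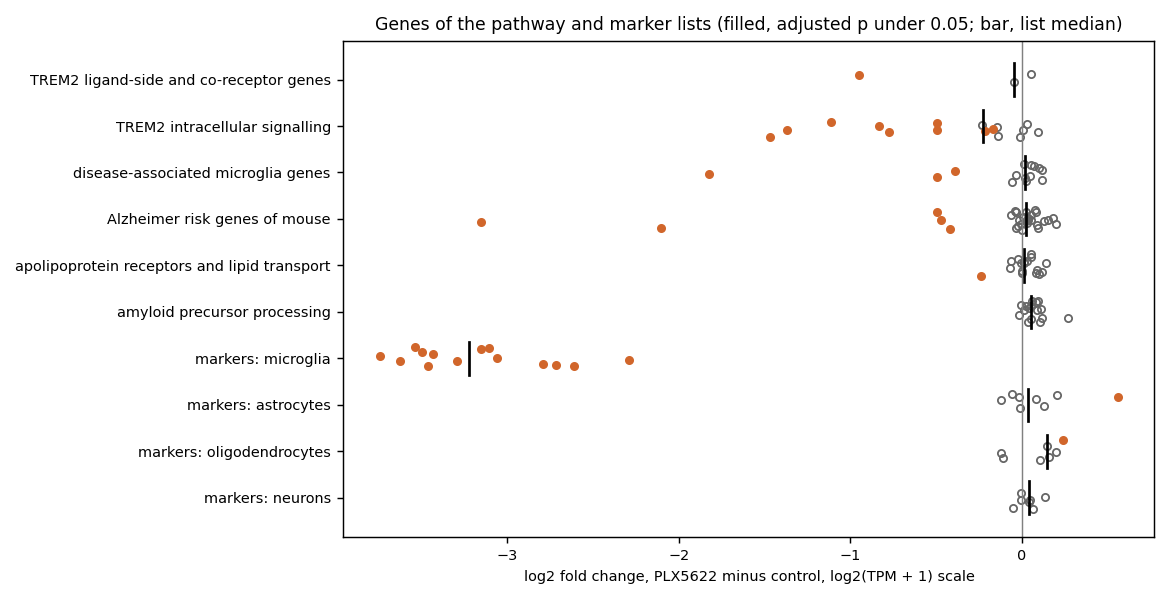
Log2 fold change (PLX5622 minus control, log2(TPM + 1) scale) of each tested gene in the pathway and marker lists, filled where the limma adjusted p was under 0.05, with a bar at the list median. Signalling genes spread from -1.47 to about 0, all 14 microglial markers lie below -2, and genes of lipid transport and amyloid processing gather near 0.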

How the data were processed

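Cortical RNA of 47 mice was sequenced as paired reads. The authors aligned reads with STAR 2.7.0f and quantified with Salmon 1.0.0 (GRCm38), and deposited TPM values per gene. A second deposited table, named for FPKM, holds whole-number counts per gene without normalization and was used as counts. The labels' processing notes name featureCounts. Identifiers matched GENCODE M21 for 99.68% and 99.77% of genes. Groups came from the labels. The members and gene lists were chosen with earlier results of these data known.

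Tests used limma 3.58.1 (R 4.3.3) on log2(TPM + 1) of genes averaging 1 TPM or more, with diet and the cosine and sine of ZT (24-h period) as terms, 12 group means for single ZTs, and interactions for rhythms. Ratios used a pseudocount of 0.1. JTK_CYCLE (6 phases, with p-values corrected over them) was rewritten here. Adjusted p-values are Benjamini-Hochberg values over all genes tested (threshold 0.05). edgeR 4.0.16 and DESeq2 1.42.0 were run on the counts as alternatives. The statistics were tested on simulated data. Tables and figures used Python 3.11.15 and matplotlib 3.10.9.

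Besides the members, the text names up to 4 genes per list that passed the test with the largest change, and the 3 genes most like *Trem2* and *Apoe*. Over 69 pairs of libraries of 1 group, chi-square per degree of freedom was at least 4.3, so mice differed by more than counting error.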

Additional observations from a re-analysis of the deposited data

Results flagged for a closer look

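In 4 of the 110 groups of 4 mice examined over the 10 genes, 1 mouse stood far from the other 3, by a gap that took up most of the group's range (Dixon's criterion). Chance alone flags about 1 in 20 such groups, here 5.5. *Trem2* was 5.65 TPM in PLX5622 mouse 1 at ZT14, where the other 3 had 1.83 to 2.04 TPM. *Inpp5d* was 14.5 TPM in control mouse 2 at ZT22 (others 5.002 to 5.87 TPM) and 3.58 TPM in PLX5622 mouse 3 at ZT18 (others 2.02 to 2.17 TPM). *Clu* was 1027 TPM in PLX5622 mouse 1 at ZT6 (others 888 to 899 TPM).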

How the results depend on the processing

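Calls were repeated without a minimum on TPM, with a minimum of 5 TPM, another pseudocount, median-of-ratios scaling, ZT as a factor, the replicate number as a block, the counts, and each library left out. The 6 TREM2-side genes tested kept their direction and call for diet in each setting that tested them. With a minimum of 5 TPM fewer members were tested, and 3 in place of 6 were called for diet, 2 in place of 4 at every ZT, and 4 in place of 7 relative to *Clu*. With a library left out, 6 to 6 members were called for diet, 3 to 5 at every ZT, 0 to 0 for a rhythm difference and for cycling with either diet, 7 to 7 relative to *Trem2*, 6 to 8 relative to *Clu* and 3 to 3 for the microglial level.

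*Abi3* was no longer called at every ZT without control mouse 1, 2 or 3 or PLX5622 mouse 2 or 3 of ZT18, with the pseudocount of 0.1 and without a minimum on TPM. *Plcg2* gained it without PLX5622 mouse 4 of ZT6. *Apoe* relative to *Clu* lost its call without control mice 1, 2 or 4 of ZT10, 1 or 4 of ZT18 or 1 or 2 of ZT22, and without PLX5622 mice 1, 3 or 4 of ZT2, 3 of ZT6, 2 or 4 of ZT14, 3 of ZT18 or 4 of ZT22. *Bin1* relative to *Clu* gained one without control mouse 3 of ZT14 or PLX5622 mouse 3 of ZT22. The causes were not tested.

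The labels do not tie replicate numbers to a shared cage, batch or day, and the numbers were not used to pair mice. As a hint from the data only, deviations of the 23 pairs with the same ZT and number correlated by -0.093 to 0.198 (median 0.0722), 7 of them over 0.1. Of 23 control libraries, 11 correlated best with their own number, where each had 4 PLX5622 libraries of its ZT as candidates. Some structure shared by replicate number is therefore possible. With the replicate block, 6 members were called for diet, 4 at every ZT, 7 relative to *Trem2*, 8 relative to *Clu* (*Bin1* added, adjusted p = 0.0298), 3 for the microglial level and 0 for rhythm.

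Over all genes, 503 were called for diet, against 1243 with edgeR, 1355 with DESeq2 and 298 with a minimum of 5 TPM. Cycling genes numbered 11 in control mice, against 0 without a minimum, 60 with median-of-ratios scaling, 36 with the limma F test, 68 with the block and 0 to 18 with a library left out. In PLX5622 mice they numbered 89, against 43, 161, 135, 153 and 38 to 114. Genes rising with the microglial level numbered 19, against 7 with a minimum of 5 TPM and 10 with the block. Median-of-ratios scaling shifted the median change by -0.022. At the levels of *Syk*, *Plcg2*, *Cd33* and *Abi3* the depth limits the precision, and log2(TPM + 1) understates their change.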
